A study of Mus musculus with 18 samples.

Results

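The data described here compare the CFU-E (colony-forming unit, erythroid) with the PreCFU-E, the red cell progenitor that precedes it, in bone marrow of mice with floxed Scf alleles and no Cre. They comprise 6 of the 18 libraries of the series, chosen by their labels: 3 CFU-E libraries and 3 PreCFU-E libraries from 3 mice, called A, B and C, each of which gave 1 library of either stage. All genes of the deposited count table were considered. The study compared expression in both stages between mice with intact and mutant Scf (Kitl in the count table), the gene of stem cell factor, which is the ligand of the receptor tyrosine kinase KIT. It measured total RNA of sorted cells from 3 genotypes: Scf FL/FL mice, the controls of the series, Scf KO/FL mice with 1 deleted and 1 floxed allele, and Scf KO/FL;Lepr-Cre mice, in which Cre is driven from the Lepr gene, which marks perivascular stromal cells of the marrow. Cells were enriched with KIT beads and stained for lineage antigens, CD105, CD150, CD41, CD16/32 and Sca1, so the genes of these antigens describe the gates and are not findings. Mice A and C were male and mouse B was female; their ages were not stated in the labels.

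Red cells arise from megakaryocyte and erythroid progenitors through the PreCFU-E and the CFU-E, which is the stage that comes to depend on erythropoietin and then gives rise to the first erythroblasts. On the way GATA1 takes the place of GATA2 at shared binding sites, and GATA1, KLF1 and TAL1 switch on the genes of haemoglobin, haem, iron uptake and the red cell membrane. The CFU-E divides rapidly, and its entry into S phase is known to be tied to the onset of the terminal erythroid programme.

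The library totals were 5460920, 8601983 and 8600071 counts in CFU-E of mice A, B and C, and 9389122, 6733640 and 7046099 counts in PreCFU-E of the same mice, within the range of 3541066 to 9389122 over the series. Between 11852 and 12381 genes had a count in each of the 6 libraries. Levels are given as CPM (counts per 1000000 counts of the TMM-scaled library), always in the order of mice A, B and C, and a level is a share of the library and not an amount per cell. Changes are log2 fold changes of CFU-E over PreCFU-E with their standard error (SE), fitted with the mouse as a block, and a gene was called when the adjusted p of edgeR's quasi-likelihood test was below 0.05. The first principal component held 62.6% of the variance and placed the CFU-E libraries between 35.6 and 42.8 and the PreCFU-E libraries between -43.9 and -35.4. The second component, with 12.1%, set both libraries of mouse A apart from the other 4. Scf itself (Kitl) had 0 counts in all 6 libraries, where 3 counts, the limit a count of 0 allows, correspond to 0.32 to 0.549 CPM. Kit was at 476, 364 and 408 CPM in CFU-E and at 858, 849 and 749 CPM in PreCFU-E. All 3 CFU-E values lay below all PreCFU-E values, with a log2 fold change of -0.98 (SE 0.0781, edgeR adjusted p = 1.98e-21), in cells enriched with beads against KIT itself. Slamf1, which encodes the sorted antigen CD150, had 2 counts in the CFU-E libraries together and 91 in the PreCFU-E libraries. Among the antigens sorted against, Fcgr3 (CD16) and Ly6a (Sca1) had 0 counts. Some genes that dividing or erythroid cells use, such as Cdt1 (replication licensing) and Zfpm1 (the GATA1 cofactor FOG1), also had 0 counts in all 6 libraries, so a gene listed at 0 in this table is not read here as silent.

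Of 10052 genes tested, 3185 were called, or 31.7%. Of these, 1585 were higher in CFU-E (15.8% of the tested genes) and 1600 lower (15.9%), and the median change over all tested genes was 0.01. Changes of more than 2-fold were found in 346 of the higher and 707 of the lower genes. The 3 CFU-E values lay entirely above or below the 3 PreCFU-E values for 3583 genes, or 35.6%. Without mouse B, the female, the count of called genes was 2023, and 1962 of these were among the 3185. Without the mouse as a block, 2078 genes were called, 940 higher and 1138 lower.

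**Figure D1:**
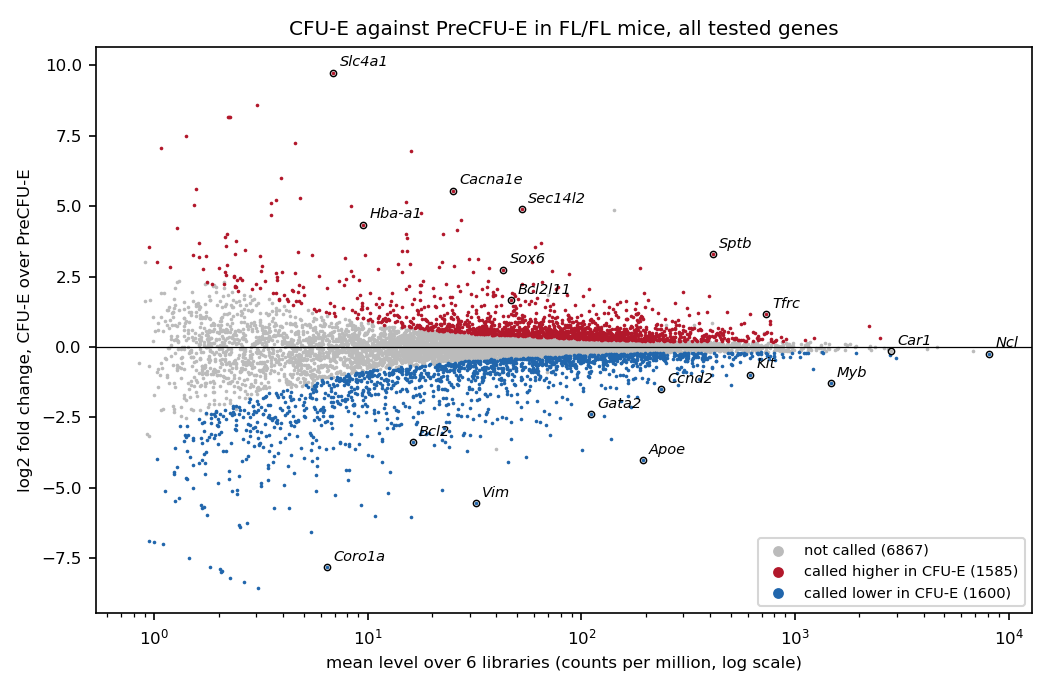
Log2 fold change of CFU-E over PreCFU-E in FL/FL mice (y axis) against the mean level over 6 libraries in CPM (x axis, log scale), 1 point for each of the 10052 tested genes, with 1585 genes called higher in red, 1600 called lower in blue and the rest in grey. Slc4a1 is drawn at its fitted value, which is no bound, Sptb lies at 3.30, Vim at -5.54 and Apoe at -4.03, while abundant genes such as Car1 and Ncl lie near 0.

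The 15 largest rises were in genes at low levels in PreCFU-E, none above 11.5 CPM in any PreCFU-E library. Slc4a1, at chr11:102348824-102366203 of GRCm38, encodes band 3, the anion exchanger of the red cell membrane, and was at 17.8, 20.3 and 3.20 CPM in CFU-E with 0 counts in the PreCFU-E libraries. The CFU-E libraries did not overlap with PreCFU-E, but that of mouse C was far lower than the others. Against the limit of 3 counts over the PreCFU-E group, the level of Slc4a1 was at least 103-fold higher in CFU-E. Sec14l2, a lipid-binding protein of the SEC14 family, was at 105, 109 and 91.1 CPM in CFU-E against 4.5, 2.69 and 2.81 CPM in PreCFU-E. These values did not overlap, and the log2 fold change was 4.91 (SE 0.205, edgeR adjusted p = 1.51e-44). Cacna1e, a voltage-gated calcium channel subunit, was at 54.7, 64.7 and 28.1 CPM in CFU-E and 1.68, 0.748 and 0.562 CPM in PreCFU-E, a log2 fold change of 5.55 (SE 0.31). Btnl10, a butyrophilin-like protein, was at 113, 141 and 105 CPM in CFU-E and 9.01, 8.23 and 10.3 CPM in PreCFU-E, a log2 fold change of 3.69 (SE 0.171). Neither of these 2 genes overlapped between the stages. The formin-family gene Fhdc1 (log2 fold change 6.95), the stearoyl-CoA desaturase Scd1 (5.14), the ubiquitin ligases Trim2 (4.99) and Trim10 (4.14), Rab3il1 (4.76), the sialyltransferase St3gal6 (4.52), the lipid phosphatase Plpp1 (4.02), Rgcc (4.01), the amino acid transporter Slc6a20a (3.86) and Pkhd1l1 (3.54) made up, with Hba-a1, the remaining members of the 15 largest rises at 5 CPM or more. All 15 were called and had groups that did not overlap, which was part of the rule that chose them. Members as low in PreCFU-E as Slc4a1, Fhdc1, Cacna1e, Trim2 and Rab3il1 passed the filter on low counts only through CFU-E, where they were high.

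The 15 largest falls included genes of the actin and vimentin cytoskeleton and of leukocyte adhesion. Genes as low in CFU-E as these passed the filter on low counts only through PreCFU-E, where they were high. Their calls and the lack of overlap were again part of the rule that chose them. Vim, the intermediate filament vimentin, was at 1.99, 0.705 and 1.54 CPM in CFU-E against 48.7, 60.5 and 79.5 CPM in PreCFU-E. The stages did not overlap, and the log2 fold change was -5.54 (SE 0.275, edgeR adjusted p = 1.27e-36). Coro1a, the actin-binding coronin of blood cells, had a single count in the CFU-E libraries and 7.75, 15.6 and 15.2 CPM in PreCFU-E. Its ratio of PreCFU-E over CFU-E was 275, with an exact 95% interval from 49.0 to 10900 that covers counting error only. Plac8 was at 0.181, 0.352 and 1.54 CPM in CFU-E and 12.6, 24.1 and 36.0 CPM in PreCFU-E, a log2 fold change of -5.17 (SE 0.428). Itgal, the alpha chain of the leukocyte integrin LFA-1, was at 0.181, 0.352 and 0.356 CPM in CFU-E and 9.21, 13.5 and 10.7 CPM in PreCFU-E (log2 fold change -5.13, SE 0.655). No value of Plac8 or Itgal overlapped between the stages. Scin, an actin-severing protein, fell by 6.05 on the log2 scale, and Lcp2, the adaptor SLP-76, by 4.36. The 15 largest falls also held the actin regulator Gmfg, with a ratio of PreCFU-E over CFU-E of 113 (exact 95% interval 30.9 to 939), Spns3, Rab37, the cholesterol transporter Abcg1, the sialyltransferase St8sia6, Atp10a, Adgrg3 and Rin3, with log2 fold changes between -6.003 and -4.44. In bulk samples, fewer cells of a type and less RNA per cell cannot be told apart, which bears on all of these falls.

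Of 18 tested erythroid transcription factors, 5 rose and 3 fell, a share of 44.4% beside 31.7% of all tested genes, with a median of 0.06. Gata1 was at 196, 230 and 247 CPM in CFU-E and 211, 218 and 231 CPM in PreCFU-E. The values overlapped, and the log2 fold change was 0.02 (SE 0.0882, edgeR adjusted p = 0.877). Klf1, an activator of globin and red cell genes, was at 310, 301 and 306 CPM in CFU-E against 248, 245 and 232 CPM in PreCFU-E, a rise of 0.34 (SE 0.0831, edgeR adjusted p = 0.000593) with no overlap. The rise of Sox6, a factor known to silence embryonic globin genes, was the largest in the list. It was at 68.8, 101 and 55.8 CPM in CFU-E and 8.38, 13.3 and 11.5 CPM in PreCFU-E, with no overlap and a log2 fold change of 2.75 (SE 0.186, edgeR adjusted p = 1.89e-26). Nfia (0.53), the repressor Gfi1b (0.38) and Klf13 (0.25) were the other rises, and Nfe2 (-0.88), Cbfa2t3 (-0.79) and Foxo3 (-0.29) fell. Tal1, Lmo2, Ldb1 and Bcl11a, whose changes lay between -0.14 and 0.18, were not called.

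Of 21 tested regulators of stem cells and early progenitors, 18 fell and 1, Runx1, rose (0.41, with overlap between the stages). The called share was 90.5% beside 31.7% of all tested genes, with a median of -1.68. Members as low in CFU-E as Spi1 and Meis1 passed the filter on low counts only through PreCFU-E, where they were high. In the fit of all 18 libraries Runx1 changed by -0.01 in KO/FL mice and by -0.07 in Lepr-Cre mice. Gata2 was at 37.7, 32.5 and 37.5 CPM in CFU-E and 171, 193 and 196 CPM in PreCFU-E. No values overlapped, and the log2 fold change was -2.38 (SE 0.12, edgeR adjusted p = 4.86e-37). Myb, which sustains progenitor division, was at 904, 793 and 859 CPM in CFU-E and 2190, 2140 and 1930 CPM in PreCFU-E (log2 fold change -1.29, SE 0.0749). Meis1, Fli1, Mef2c, Ikzf2 and Hlf fell by 3.84, 3.31, 3.11, 2.87 and 2.85 on the log2 scale, and Spi1, the myeloid factor PU.1, had 3 counts in the CFU-E libraries together. Its ratio of PreCFU-E over CFU-E was 34.6 (exact 95% interval 11.5 to 171). Cdk6, which restrains the maturation of progenitors, fell by 0.78 and stayed abundant, at 999, 857 and 827 CPM in CFU-E against 1530, 1550 and 1520 CPM in PreCFU-E. Ikzf1 (0.03) and Lyl1 (-0.25) were not called.

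**Figure D2:**
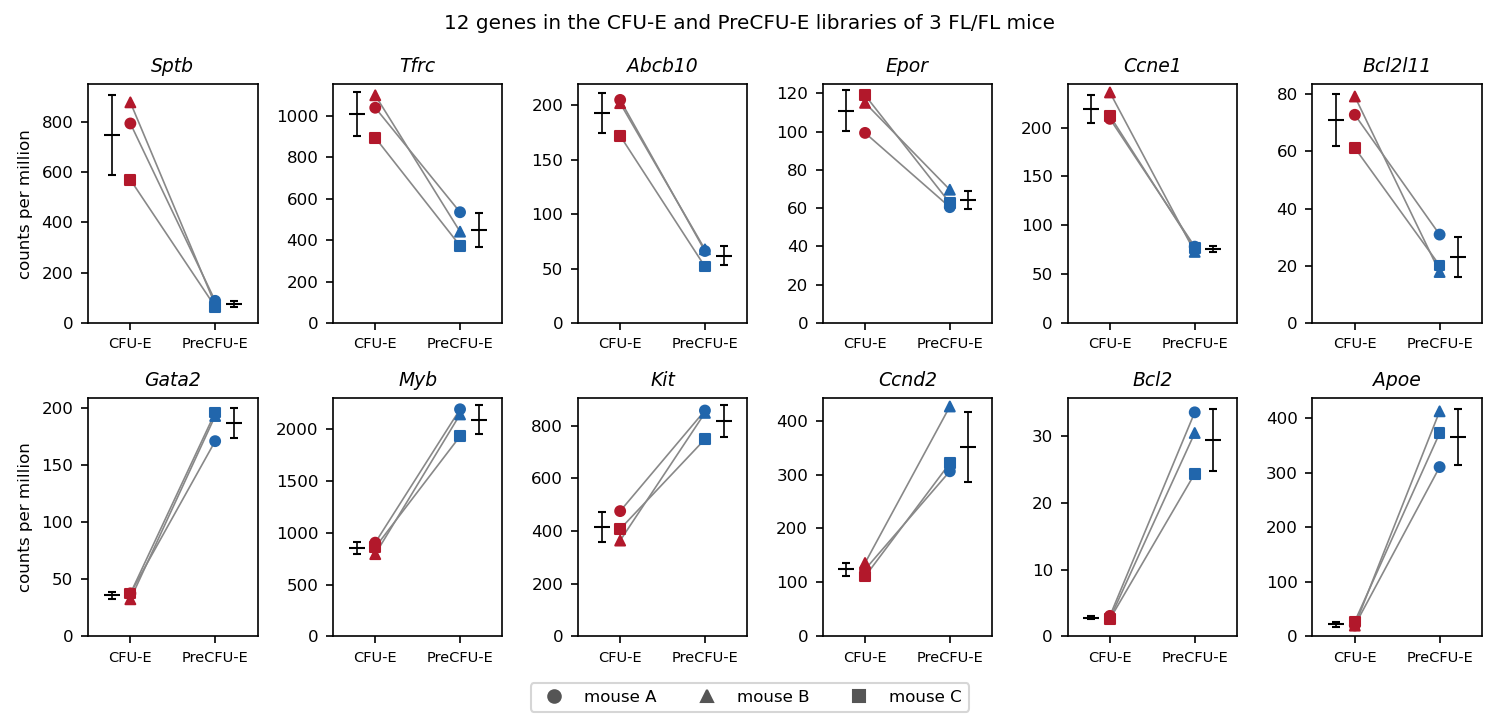
CPM (y axis, from 0) of 12 genes in the CFU-E (left, red) and PreCFU-E (right, blue) library of each FL/FL mouse, with a line joining the 2 libraries of a mouse and the mean ± SD of 3 libraries beside the points. The upper row holds genes that rose in CFU-E and the lower row genes that fell, such as Gata2 with 32.5 to 37.7 CPM in CFU-E and 171 to 196 CPM in PreCFU-E, and in none of the 12 do the stages overlap.

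Haemoglobin genes came on while still at low levels. The adult globins were the only members of their list that passed the filter on low counts, and all 4 tested genes rose, with a median of 5.81 as fitted and 5.01 with Hbb-bs at its bound; a gene at this level passes that filter only through the stage where it is high. Hba-a1 (alpha globin, chr11:32283511-32284465 in GENCODE, whose start differs from that of RefSeq used for its promoter) was at 15.6, 18 and 20.4 CPM in CFU-E and 0.419, 0.15 and 2.53 CPM in PreCFU-E, a log2 fold change of 4.34 (SE 0.463, edgeR adjusted p = 2.75e-13) with no overlap. Hbb-bt and Hbb-bs, the adult beta globins, were at 5.25, 14.7 and 3.20 CPM and at 3.62, 2.00 and 2.85 CPM in CFU-E, with 2 and 0 counts in the PreCFU-E libraries together. The level of Hbb-bs was thereby at least 21.1-fold higher in CFU-E. Globin copies of a pair are nearly identical in sequence, and the counting may have split or dropped their shared reads, so the copies are uncertain one by one. Summed over the list, the globins made up 28.1 to 39.3 CPM in CFU-E and 0.15 to 2.95 CPM in PreCFU-E.

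Of 19 tested genes of haem synthesis and transport 15 rose and 1 fell, a share of 84.2% beside 31.7% of all tested genes. Their median was 0.95. Among the enzymes that rose were Alad (0.62), Uros (1.94), Urod (0.56), Cpox (0.87), Ppox (1.28) and ferrochelatase, Fech (0.94). Uros was at 58.3, 68.4 and 55.8 CPM in CFU-E and 16.9, 19 and 12.2 CPM in PreCFU-E, with no overlap. Of the enzymes of the first step, Alas1, the general form, was not called (-0.38, edgeR adjusted p = 0.0756), and Alas2, the erythroid form, was too low to test, with 80 counts in the CFU-E libraries together and 12 in the PreCFU-E libraries. Hebp1, a haem-binding protein, was at 116, 134 and 131 CPM in CFU-E and 27.4, 27.7 and 32.3 CPM in PreCFU-E, a rise of 2.12 (SE 0.139) with no overlap. Abcb10, a mitochondrial transporter, was at 205, 202 and 172 CPM in CFU-E and 66.1, 67.6 and 51.8 CPM in PreCFU-E, a rise of 1.65 (SE 0.108, edgeR adjusted p = 1.36e-27) with no overlap. The mitochondrial transporter Slc25a38 (1.41) and Tmem14c (1.08) rose as well, and Hmox2, which degrades haem, fell (-0.46).

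For iron, 7 of 14 tested genes rose and 1 fell, a share of 57.1% beside 31.7% of all tested genes. Their median was 0.26. Tfrc, the transferrin receptor through which erythroid cells import iron, was at 1040, 1100 and 895 CPM in CFU-E and 535, 441 and 373 CPM in PreCFU-E. The groups did not overlap, and the log2 fold change was 1.18 (SE 0.0774, edgeR adjusted p = 3.22e-27). The endosomal iron transporter Slc11a2 (0.49), the ferrireductase Steap3 (0.45), both ferritin chains, Fth1 (0.80) and Ftl1 (0.64), the iron exporter Slc40a1 (0.60) and Tfr2 (0.37) rose. Ncoa4, the receptor that delivers ferritin for degradation, fell (-0.67), and the iron regulatory genes Ireb2 (0.01) and Aco1 (-0.10) were not called.

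Of 13 tested genes of the membrane skeleton 10 rose and 2 fell, a share of 92.3% beside 31.7% of all tested genes. Their median was 0.86. Sptb, erythroid beta spectrin (chr12:76580488-76710547), was at 794, 878 and 570 CPM in CFU-E and 87.9, 73.3 and 64.8 CPM in PreCFU-E. The stages did not overlap, with a log2 fold change of 3.30 (SE 0.0898, edgeR adjusted p = 2.27e-59). Epb42, which joins band 3 to the skeleton, was at 68.3, 59.5 and 49.2 CPM in CFU-E and 7.64, 5.24 and 7.16 CPM in PreCFU-E (3.14, SE 0.215), again with no overlap. Dmtn, dematin (2.88), Add2, beta adducin (1.23), Ank1, ankyrin (0.94), Mpp1 (0.86), Epb41, which binds spectrin to actin (0.53), Tpm1 (0.36) and Stom (0.22) rose. The falls were in Tpm3 (-0.74) and Add3 (-0.62), a tropomyosin and an adducin of many tissues, while Add1 (-0.17) was not called.

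Surface proteins of the red cell rose in 13 of 21 tested genes and in none was a fall called. The called share was 61.9% beside 31.7% of all tested genes, with a median of 0.69. Cldn13, a claudin, was at 85.9, 80.8 and 94.1 CPM in CFU-E and 21.7, 18.9 and 14.9 CPM in PreCFU-E, a rise of 2.24 (SE 0.168) without overlap. Rhd (1.58) and Rhag (1.32) of the Rhesus complex, Tspan33 (1.24), Cd24a (1.19), the nucleoside transporter Slc29a1 (1.07) and the Kell protein gene Kel (1.06) rose. The carbonic anhydrase Car1 was at 2760, 2190 and 3100 CPM in CFU-E and 2990, 2810 and 3100 CPM in PreCFU-E, and was not called (-0.16, edgeR adjusted p = 0.0946), whereas Car2 rose by 0.73, with 2550, 2750 and 3050 CPM in CFU-E and 1670, 1580 and 1770 CPM in PreCFU-E. Of 22 tested genes that peak in late erythroblasts, 12 rose and 1, the catalase gene Cat, fell, a share of 59.1%, with a median of 0.58. Besides Trim10 these included the antioxidant Prdx2 (1.19) and Ubac1 (1.43), whereas Bnip3l (0.15) and Trim58 (-0.41), which act in clearing organelles, were not called.

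Promoters of 6 of these genes are shown because they hold the sequence words known to be bound by the factors named above. They are the 250 bases before the start site in the RefSeq table on GRCm38.p6, on the strand of the gene, 5′ to 3′, for 4 genes that rose and 2 that fell, chosen after their values were seen. Capitals mark GATA words (AGATAA or AGATAG, and likewise TGATAA or TGATAG) and KLF1-type CACCC words (CCACACCC, CCACGCCC, CCCCACCC or CCCCGCCC), searched on both strands, and no word of the first kind overlaps one of the second here.
Hba-a1, chr11:32283422-32283671, plus strand: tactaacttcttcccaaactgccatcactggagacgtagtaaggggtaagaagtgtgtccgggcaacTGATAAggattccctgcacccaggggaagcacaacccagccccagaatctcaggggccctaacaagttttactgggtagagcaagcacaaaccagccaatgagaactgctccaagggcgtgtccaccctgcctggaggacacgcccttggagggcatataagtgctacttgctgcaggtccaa
Hbb-bs, chr7:103827929-103828178, minus strand: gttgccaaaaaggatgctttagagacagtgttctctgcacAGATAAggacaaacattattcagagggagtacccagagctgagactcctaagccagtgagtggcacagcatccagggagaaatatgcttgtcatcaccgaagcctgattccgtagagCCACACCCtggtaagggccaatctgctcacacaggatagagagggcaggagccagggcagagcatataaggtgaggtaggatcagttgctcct
Epb42, chr2:121036878-121037127, minus strand: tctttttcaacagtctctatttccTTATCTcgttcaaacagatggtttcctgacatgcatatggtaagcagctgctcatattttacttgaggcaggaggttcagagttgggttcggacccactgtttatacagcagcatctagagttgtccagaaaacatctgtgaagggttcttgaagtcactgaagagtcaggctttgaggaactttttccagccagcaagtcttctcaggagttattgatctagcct
Sptb, chr12:76710548-76710797, minus strand: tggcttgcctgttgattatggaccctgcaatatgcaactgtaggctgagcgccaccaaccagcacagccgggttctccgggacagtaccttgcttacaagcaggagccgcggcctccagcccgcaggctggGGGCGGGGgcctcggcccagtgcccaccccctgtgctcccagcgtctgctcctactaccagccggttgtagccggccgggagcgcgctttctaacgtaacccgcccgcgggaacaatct
Lcp2, chr11:34046678-34046927, plus strand: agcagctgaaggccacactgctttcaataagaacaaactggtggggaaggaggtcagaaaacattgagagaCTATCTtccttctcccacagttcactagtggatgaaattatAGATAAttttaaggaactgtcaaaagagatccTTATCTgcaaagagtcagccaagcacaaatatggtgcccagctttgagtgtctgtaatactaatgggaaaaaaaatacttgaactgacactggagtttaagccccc
Scin, chr12:40134229-40134478, minus strand: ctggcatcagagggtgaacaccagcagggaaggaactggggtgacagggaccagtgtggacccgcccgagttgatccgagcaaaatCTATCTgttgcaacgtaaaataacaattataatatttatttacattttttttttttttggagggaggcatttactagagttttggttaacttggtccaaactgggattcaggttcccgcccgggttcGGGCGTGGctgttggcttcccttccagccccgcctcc
Both globin promoters hold a GATA word, and that of Hbb-bs also holds the word CCACACCC, which begins 93 bases before the start. The promoter of Sptb has a CACCC word on the opposite strand and no GATA word, and that of Epb42 has a GATA word and no CACCC word. Lcp2 and Scin, which fell, have 3 and 1 GATA words, so the words are found on either side of the comparison. Over 27025 promoters of that set, 27.1% held a GATA word and 27.6% a CACCC word, and over the 7695 tested genes with a promoter the shares were 16.4% and 44.0%. Genes called higher had them in 16.6% and 47.5% of 1202 promoters, and genes called lower in 17.6% and 48.2% of 1241. Among the tested members with a promoter, GATA words stood in 5 of 10 genes of the membrane skeleton, 6 of 13 of the red cell surface and 3 of 4 globins. They also stood in 4 of 11 genes of iron handling, 2 of 15 of haem synthesis and transport and 1 of 14 early progenitor regulators. CACCC words stood in 7, 5, 1, 3, 6 and 6 genes of these lists, in the same order. A match is a description of the letters, and a promoter without one may have sites elsewhere.

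Epor, the erythropoietin receptor, was at 99.3, 115 and 119 CPM in CFU-E and 60.5, 69.6 and 62.7 CPM in PreCFU-E, a rise of 0.79 (SE 0.125, edgeR adjusted p = 8.68e-08) with no overlap. Of the other 10 tested genes of the erythropoietin and STAT5 list, none rose, and Lyn (-1.36), Stat5b (-0.34) and Stat5a (-0.25) fell, the last with a call that was lost without mouse A or mouse B and without the block. The called share of the 11 genes was 36.4%, close to the 31.7% of all tested genes, and their median was -0.07. Jak2 (0.07), Pim1 (0.04) and Bcl2l1 (0.51) were not called, and the feedback genes Cish, Socs1, Socs2 and Socs3 were too low to test.

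The called share was 66.7%, beside 31.7% of all tested genes, in the list of KIT with the feedback and early response genes of the ERK pathway. It had 10 of 15 tested genes lower, none higher and a median of -0.98. Kit, whose product the beads select, is 1 of the 10. Beside Kit itself, Dusp6 (-1.46), Spry2 (-2.16), Spry4 (-1.05), Spred1 (-0.37) and Etv5 (-0.80), which are feedback inhibitors and a target of ERK signalling, fell. Myc was at 332, 320 and 306 CPM in CFU-E and 606, 695 and 592 CPM in PreCFU-E, a fall of 0.98 on the log2 scale (SE 0.0785, edgeR adjusted p = 1.51e-21) without overlap. The immediate early gene Egr1 was at 1.63, 5.87 and 2.61 CPM in CFU-E and 20.7, 61.1 and 13.1 CPM in PreCFU-E, a log2 fold change of -3.11 (SE 0.31). Egr1 did not overlap, but both stages were highest in mouse B. Fos was at 5.07, 18.7 and 0.475 CPM in CFU-E and 17, 43.4 and 1.69 CPM in PreCFU-E, lower in CFU-E of every mouse but overlapping between the groups, and its call (-1.49) was lost without the block.

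Of 10 tested genes of the glucocorticoid response, which sustains self-renewal of early erythroid progenitors, 5 fell and none rose. The called share was 50% beside 31.7% of all tested genes, with a median of -0.38. The receptor Nr3c1 was at 220, 152 and 139 CPM in CFU-E and 251, 250 and 232 CPM in PreCFU-E (-0.55, SE 0.0934). Zfp36l2, an RNA-binding protein needed for that self-renewal, was at 224, 232 and 206 CPM in CFU-E and 442, 611 and 410 CPM in PreCFU-E (-1.13, SE 0.0832). Neither overlapped between the stages. Zbtb16 (-3.57), Fkbp5 (-1.05) and Tsc22d3 (-0.82) were the other falls.

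Of 35 tested S phase genes 28 rose and none fell, a share of 80% beside 31.7% of all tested genes, with a median of 0.50. The largest rises were in the cyclin E genes, E2f2 and Rrm2. Ccne1 was at 209, 236 and 212 CPM in CFU-E and 78.1, 72.7 and 76.4 CPM in PreCFU-E, a rise of 1.53 (SE 0.102, edgeR adjusted p = 6.81e-27). Ccne2 rose by the same 1.53, with 83.1, 90.9 and 80.9 CPM in CFU-E and 29.4, 27.7 and 30.8 CPM in PreCFU-E. Neither cyclin overlapped between the stages. Rrm2, the regulated subunit of ribonucleotide reductase, rose by 1.34, Tk1, thymidine kinase, by 1.07, the transcription factor E2f2 by 1.47 and Slbp, the histone mRNA binding protein, by 0.78. The changes of the MCM helicase genes ran from 0.22 for Mcm3 to 0.50 for Mcm5, and Mcm6 (0.06) was not called.

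Replication histones, which are made in S phase, had 33 of 55 tested genes higher and 1 lower, a share of 61.8%, with a median of 0.39. Hist1h1a, a linker histone, was at 573, 618 and 830 CPM in CFU-E and 281, 216 and 355 CPM in PreCFU-E, a rise of 1.26 (SE 0.081) without overlap. Histone genes are near-identical copies and their shares of reads are uncertain one by one. Of 30 tested mitotic genes 14 rose and none fell, a share of 46.7% beside 31.7% of all tested genes, with a median of 0.23. The rises were led by Cenpa (0.64), Ccnb2 (0.59), Birc5 (0.56), Aurka (0.53) and Ccna2 (0.52), while Top2a (-0.04), Cenpf (0.00) and Plk1 (0.24) were not called. Of 15 tested G1 regulators 6 rose and 1 fell, also a share of 46.7%. The fall was in Ccnd2, a D-type cyclin that growth factors induce, at 124, 136 and 111 CPM in CFU-E and 306, 426 and 321 CPM in PreCFU-E (-1.50, SE 0.0897, edgeR adjusted p = 1.15e-30) with no overlap. Cdkn2c (0.93) and Rb1 (0.84), which restrain entry into S phase, and the S phase kinase gene Cdk2 (0.40) were among the rises.

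**Figure D3:**
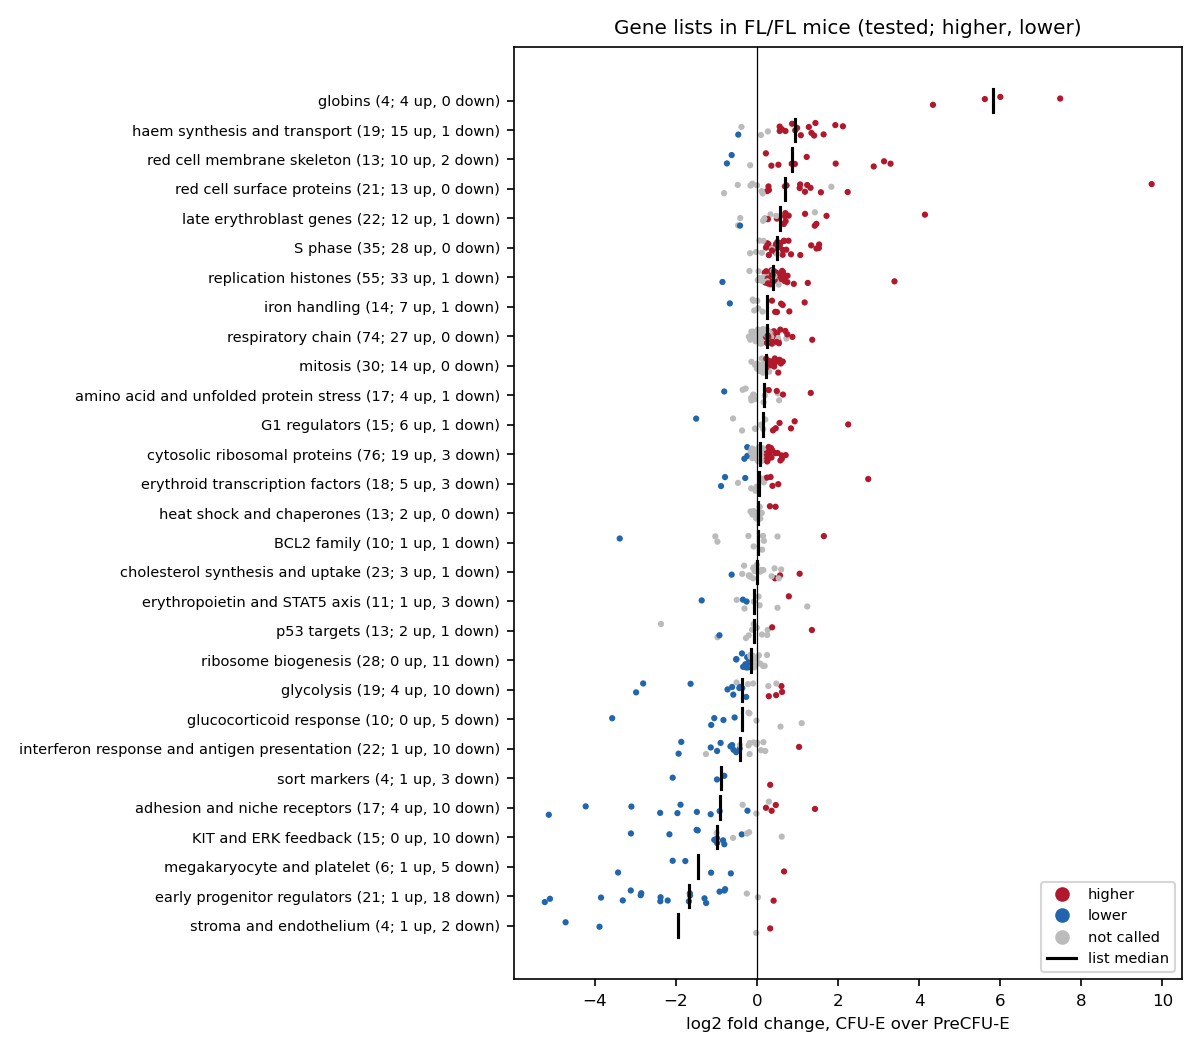
Log2 fold change of CFU-E over PreCFU-E (x axis) for each tested member of the gene lists with at least 4 tested genes (rows, ordered by the median, which is the black bar), red for members called higher, blue for members called lower and grey for the rest. The haem genes and the membrane lists lie to the right, with medians of 0.95, 0.86 and 0.69, and the early progenitor regulators to the left, with a median of -1.68. The globins had to pass the filter through CFU-E, and regulators such as Spi1 and Meis1 through PreCFU-E. The plotted median of the globins, 5.81, becomes 5.01 with Hbb-bs, fitted at 7.48 against 0 counts, at its bound.

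Of 10 tested BCL2 family genes 1 rose and 1 fell, a share of 20% beside 31.7% of all tested genes. Bcl2, which protects from apoptosis, was at 3.08, 2.70 and 2.61 CPM in CFU-E and 33.6, 30.5 and 24.4 CPM in PreCFU-E, a log2 fold change of -3.38 (SE 0.311, edgeR adjusted p = 7.48e-18). Bcl2l11, which encodes the pro-apoptotic BIM, was at 72.8, 79.2 and 61.2 CPM in CFU-E and 30.9, 17.8 and 20.1 CPM in PreCFU-E, a log2 fold change of 1.65 (SE 0.171, edgeR adjusted p = 8.28e-15). Neither gene overlapped between the stages. Bcl2l1, the survival gene that erythropoietin induces in later erythroblasts, was at 15.9, 20.9 and 11.5 CPM in CFU-E and 10.1, 13 and 10.3 CPM in PreCFU-E, with overlap, and was not called (edgeR adjusted p = 0.189), like Mcl1 (0.13). Of 13 tested p53 targets 2 rose (Trp53inp1, lost without mouse A or mouse B, and Gtse1, lost on leaving out any 1 of the 3 mice) and 1, Zmat3, fell (-0.92), a share of 23.1% below that of all tested genes, with a median of -0.08.

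Of 28 tested ribosome biogenesis genes 11 fell and none rose, a share of 39.3%, with a median of -0.15. The falls were led by Rrp12 and Rrp1b (-0.51 each), which process ribosomal RNA, and Ncl, nucleolin, was at 6360, 7890 and 8140 CPM in CFU-E and 7640, 9980 and 8820 CPM in PreCFU-E (-0.24, SE 0.0731), lower in CFU-E of every mouse but overlapping between the groups. Of 76 tested cytosolic ribosomal protein genes 19 rose and 3 fell, a share of 28.9% beside 31.7% of all genes, and the calls of Rpl41, Rps18, Rps25 and Rps21 were lost without the block. For the respiratory chain 27 of 74 rose and none fell, a share of 36.5% (median 0.25), close to the 31.7% of all tested genes. Its members with the smallest p, Uqcrh, Atp5f1, Atp5j2 and Ndufb8, were higher in CFU-E of every mouse but overlapped between the stages. Of 19 tested glycolysis genes 10 fell and 4 rose, a share of 73.7%, with a median of -0.36. Hk2, an inducible hexokinase, was at 1.99, 5.4 and 8.19 CPM in CFU-E and 37.9, 66.1 and 24.2 CPM in PreCFU-E (-2.98, SE 0.447), and Pfkp fell by 1.64 on the log2 scale. Pkm, the pyruvate kinase of other tissues, fell by 2.81, while Pklr (0.47), the red cell pyruvate kinase, and Pfkm (0.62) rose. Hk1, the hexokinase of red cells, fell (-0.36). Pklr was at 478, 490 and 532 CPM in CFU-E and 376, 364 and 340 CPM in PreCFU-E, with no overlap, and Hk2 did not overlap either.

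Stress genes were called at a share of 29.4% and cholesterol genes at 17.4%, beside 31.7% of all tested genes. Of 17 tested genes of amino acid and unfolded protein stress 4 rose and 1 fell, namely Asns (0.64), Sesn2 (1.33), Mthfd2 (0.49) and Hspa5 (0.29, lost without mouse C and without the block) against Phgdh (-0.81). Cholesterol genes had 3 of 23 higher and 1 lower with a median of 0.00, of which Pmvk (1.05) had the largest change, and chaperones had 2 of 13 higher, a share of 15.4%. On a per-length scale, as CPM per kilobase of merged exons, the most abundant genes were Rplp1, at 2750 in CFU-E and 2180 in PreCFU-E, Car1, at 2150 in CFU-E and 2380 in PreCFU-E, Hsp90ab1, at 2150 in CFU-E and 2390 in PreCFU-E, and Eef1a1, at 1850 in CFU-E and 1860 in PreCFU-E. Hist2h2bb was the fifth in CFU-E (1410, against 867 in PreCFU-E), and Rpl4 the fifth in PreCFU-E (1330 in CFU-E against 1400 in PreCFU-E).

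Of 22 tested genes of the interferon response and antigen presentation 10 fell and 1, Usp18, rose (1.04). The called share was 50% beside 31.7% of all tested genes, with a median of -0.42. The immunoproteasome subunit Psmb8 was at 36.4, 24.1 and 52.7 CPM in CFU-E and 125, 119 and 154 CPM in PreCFU-E (-1.86, SE 0.135, edgeR adjusted p = 1.72e-23). H2-K1, a class I molecule, was at 260, 250 and 312 CPM in CFU-E and 542, 573 and 504 CPM in PreCFU-E (-0.98, SE 0.0822). Neither overlapped between the stages, and H2-D1 (-0.51), B2m (-0.61), Tap1 (-0.90) and Tap2 (-0.58) fell too. H2-K1 and H2-D1 are similar in sequence and may share reads. Interferon-induced genes such as Irf7 (0.01), Ifit2 (-0.01) and Isg15 (0.10) were not called.

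Adhesion molecules changed in 14 of 17 tested genes, 10 lower and 4 higher. The called share was 82.4% beside 31.7% of all tested genes, with a median of -0.92. Icam2 was at 5.62, 7.63 and 9.73 CPM in CFU-E and 35.0, 44.7 and 39.8 CPM in PreCFU-E (-2.39, SE 0.241). Itga6, the laminin-binding integrin alpha chain, was at 19.6, 20.8 and 19.7 CPM in CFU-E and 52.6, 101 and 85.5 CPM in PreCFU-E (-1.96, SE 0.171). Both were apart between the stages, and Cd9 (-4.22), Pecam1 (-3.10), Cd63 (-1.88), Itgb2 (-1.48) and Selplg (-1.14) fell as well. The fibronectin receptor chains Itga5 (0.36) and Itgb1 (0.47) rose, and Itga4 (-0.23) fell. Cd82, a tetraspanin, was at 198, 185 and 202 CPM in CFU-E and 82.6, 57.6 and 78.7 CPM in PreCFU-E, a rise of 1.43 (SE 0.106) without overlap.

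Markers of other blood and marrow cells are given by list. No neutrophil, monocyte or lymphoid gene passed the filter on low counts. The 16 neutrophil and monocyte genes summed to 1.17 to 2.72 CPM in CFU-E and 1.80 to 3.35 CPM in PreCFU-E, with 9 of them, Elane, Ctsg and S100a8 included, at 0 counts. The 14 lymphoid genes in the table summed to 0.831 to 2.54 CPM in CFU-E and 2.51 to 7.16 CPM in PreCFU-E, with 7 of them, Cd79a and Cd3e included, at 0 counts. All 6 tested megakaryocyte and platelet genes, of 19 in the list, were called, a share of 100% beside 31.7% of all tested genes. Vwf (0.67) rose, and 5 fell, namely Plek (-3.42), the sorted antigen CD41 gene Itga2b (-2.08), Rab27b (-1.76), Gp1ba (-1.13) and Gp5 (-0.64). Plek, at 0.235 to 0.831 CPM in CFU-E, and Itga2b, at 0.705 to 3.08 CPM in CFU-E, passed the filter only through PreCFU-E. The list summed to 61.7 to 74.6 CPM in CFU-E and 77.8 to 95.2 CPM in PreCFU-E, with Ppbp and Gp6 at 0 counts. The calls of Gp5 and Gp1ba were lost on leaving out any of the 3 mice, that of Vwf without mouse A and that of Rab27b without mouse B. In the mast cell list neither of the 2 tested genes was called, and its sum of 117 to 163 CPM in CFU-E and 126 to 197 CPM in PreCFU-E was nearly all Il1rl1, at 160, 130 and 113 CPM in CFU-E and 194, 154 and 123 CPM in PreCFU-E. Of island macrophage genes Axl fell (-3.69, lost without mouse B), with C1qa, C1qb and C1qc at 0 counts and sums of 2.94 to 3.62 CPM in CFU-E and 5.86 to 9.58 CPM in PreCFU-E. In the stromal and endothelial list Eng, the CD105 antigen of the gate, gave most of the sum of 210 to 220 CPM in CFU-E and 168 to 209 CPM in PreCFU-E, and rose (0.33, lost without mouse B). Plvap was at 26.1, 25.4 and 31.6 CPM in CFU-E and 36.3, 26.6 and 22.3 CPM in PreCFU-E, with overlap, and was not called (-0.02). Pdgfrb (-4.72) and Col1a2 (-3.88) fell, from levels under 10 CPM in PreCFU-E, with Cdh5 and Col3a1 at 0 counts. Axl, Pdgfrb and Col1a2 likewise passed the filter only through PreCFU-E. The part of any other cell type in the falls above was not tested.

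The same step could be read in the other genotypes, from libraries that are not shared with the FL/FL mice, in a fit of all 18 libraries with each mouse as a block. Of the 1585 genes called higher in FL/FL mice, 97.3% changed in the same direction in KO/FL mice and 89.7% in Lepr-Cre mice, while 55.5% were called in that direction in KO/FL mice and 30.6% in Lepr-Cre mice. Of the 1600 called lower, 98.3% did so in KO/FL mice and 93.4% in Lepr-Cre mice, and 54.8% and 36% were called in that direction in the same 2 genotypes. No gene was called in the opposite direction in KO/FL mice, and in Lepr-Cre mice 3 of the higher and 1 of the lower genes were. The medians lay closer to 0 in both: that of the genes called higher was 0.57 for FL/FL mice, 0.45 for KO/FL mice and 0.29 for Lepr-Cre mice, and that of the genes called lower was -0.85 for FL/FL mice, -0.69 for KO/FL mice and -0.48 for Lepr-Cre mice. These genes were chosen for their change in FL/FL mice, so the medians are a description and no test. By its own test, the step was called for 2707 genes of FL/FL mice, 2153 of KO/FL mice and 1323 of Lepr-Cre mice in this fit.

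Both tests of a difference between the steps use the same FL/FL libraries. The test called 0 of 10732 genes (0%) for FL/FL minus KO/FL mice with edgeR's quasi-likelihood test, with 398 genes at an unadjusted p below 0.05. With DESeq2 size factors 1 gene was called, and 2 were called without the filter on low counts or without the FL/FL libraries of mouse C. For FL/FL minus Lepr-Cre mice 198 genes were called (1.84%), 145 with a positive and 53 with a negative difference. Without the FL/FL libraries of mouse B the count was 88, and without the block it was 38. Of the genes called in the FL/FL step itself, the difference was called for 134 of the 1585 higher and 56 of the 1600 lower. These genes were chosen for their change in the FL/FL libraries, which also enter the difference. The counts are therefore a description and no test.

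**Figure D4:**
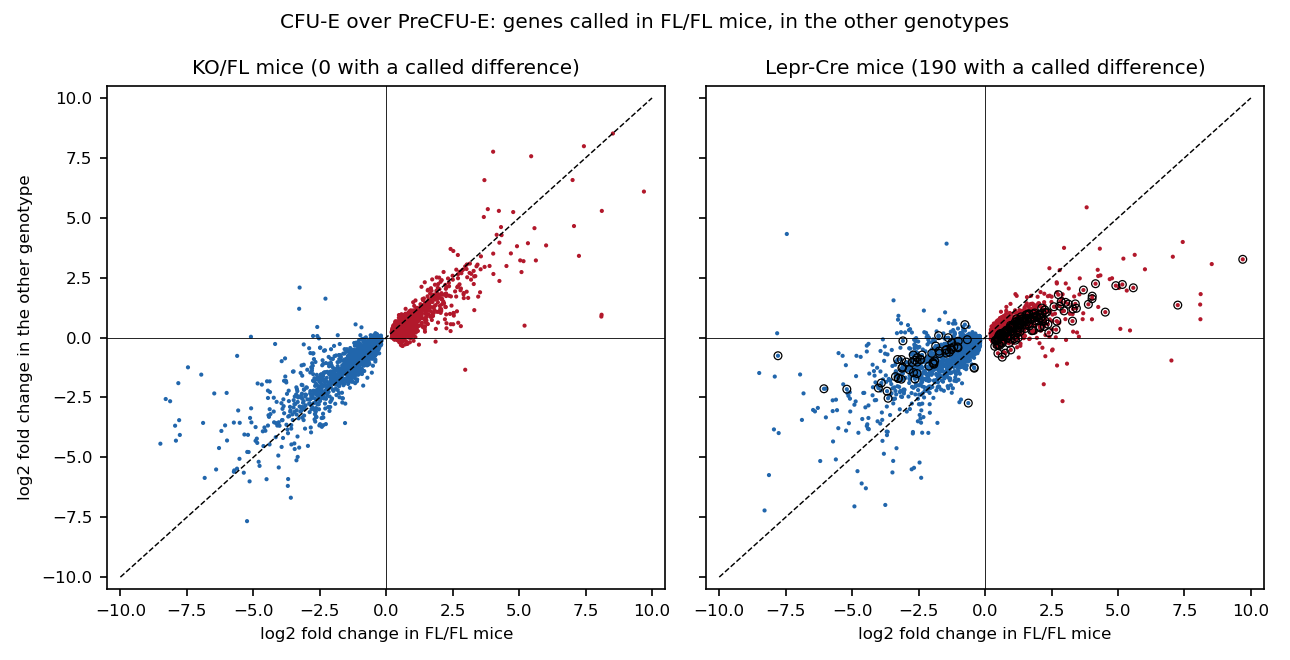
Log2 fold change of CFU-E over PreCFU-E in KO/FL mice (left) and Lepr-Cre mice (right) on the y axis against that in FL/FL mice on the x axis, from the fit of 18 libraries, for genes called higher (red) or lower (blue) in FL/FL mice, with the dashed line marking equal change and black rings the genes whose difference was called. In KO/FL mice no gene is ringed, and in Lepr-Cre mice 134 higher and 56 lower genes are ringed.

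Beta spectrin had the smallest p of all differences from Lepr-Cre mice. Sptb rose by 3.31 in FL/FL and by 1.19 in Lepr-Cre mice, a difference of 2.12 (SE 0.139, edgeR adjusted p = 1.01e-12). Its mean level was 743 CPM in CFU-E and 74.3 CPM in PreCFU-E of FL/FL mice, and 947 CPM in CFU-E and 412 CPM in PreCFU-E of Lepr-Cre mice. The PreCFU-E of Lepr-Cre mice, at 410, 443 and 382 CPM, lay above all 3 PreCFU-E libraries of FL/FL mice, at 86.7, 72.4 and 63.6 CPM in this scaling. Those of KO/FL mice, at 148, 112 and 109 CPM, lay above the FL/FL libraries as well. The FL/FL minus KO/FL difference of Sptb was 0.76 (SE 0.141) and was not called (edgeR adjusted p = 0.0602). Apoe, apolipoprotein E (chr7:19696109-19699188), fell by 4.01 in FL/FL and by 2.11 in Lepr-Cre mice, a difference of -1.91 (SE 0.175, edgeR adjusted p = 6.56e-11). Its mean was 22.3 CPM in CFU-E and 359 CPM in PreCFU-E of FL/FL mice, and 21.6 CPM in CFU-E and 94.0 CPM in PreCFU-E of Lepr-Cre mice.

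Sh2d4a, which encodes an SH2 domain protein, had a mean of 125 CPM in CFU-E and 19.8 CPM in PreCFU-E of FL/FL mice, and 78.1 CPM in CFU-E and 49.0 CPM in PreCFU-E of Lepr-Cre mice, a difference of the steps of 2.01 (SE 0.221). Hpn, the serine protease hepsin, had 122 CPM in CFU-E and 29.3 CPM in PreCFU-E of FL/FL mice, and 81.3 CPM in CFU-E and 62.0 CPM in PreCFU-E of Lepr-Cre mice, a difference of 1.66 (SE 0.206). In these 2 genes CFU-E were lower and PreCFU-E higher in the means of Lepr-Cre mice, and Wdfy4 (-2.003, SE 0.272) and the lipid transporter Abca2 (-1.35, SE 0.186) had the mirror image. Among the lists, the difference was also called for Add2 (0.82) and Ank1 (0.53) of the skeleton, for Rhag (0.80), Cldn13 (1.10), Rhd (0.63) and Cd24a (0.62) of the surface, for Hebp1 (0.90), Abcb6 (0.74), Abcb10 (0.70) and Cpox (0.53) of haem, for Tfrc (0.41), for Ccne1 (0.60) and Rrm2 (0.49), and with a negative sign for Ccnd2 (-0.96), Mef2c (-1.87), Ikzf2 (-1.52) and Egr1 (-2.95), with others of the lists not named here. The difference was not called for Kit (-0.14, edgeR adjusted p = 0.737), which fell by 0.83 in Lepr-Cre mice. Whether the sorted gates held cells of the same maturity in each genotype was not tested.

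**Figure D5:**
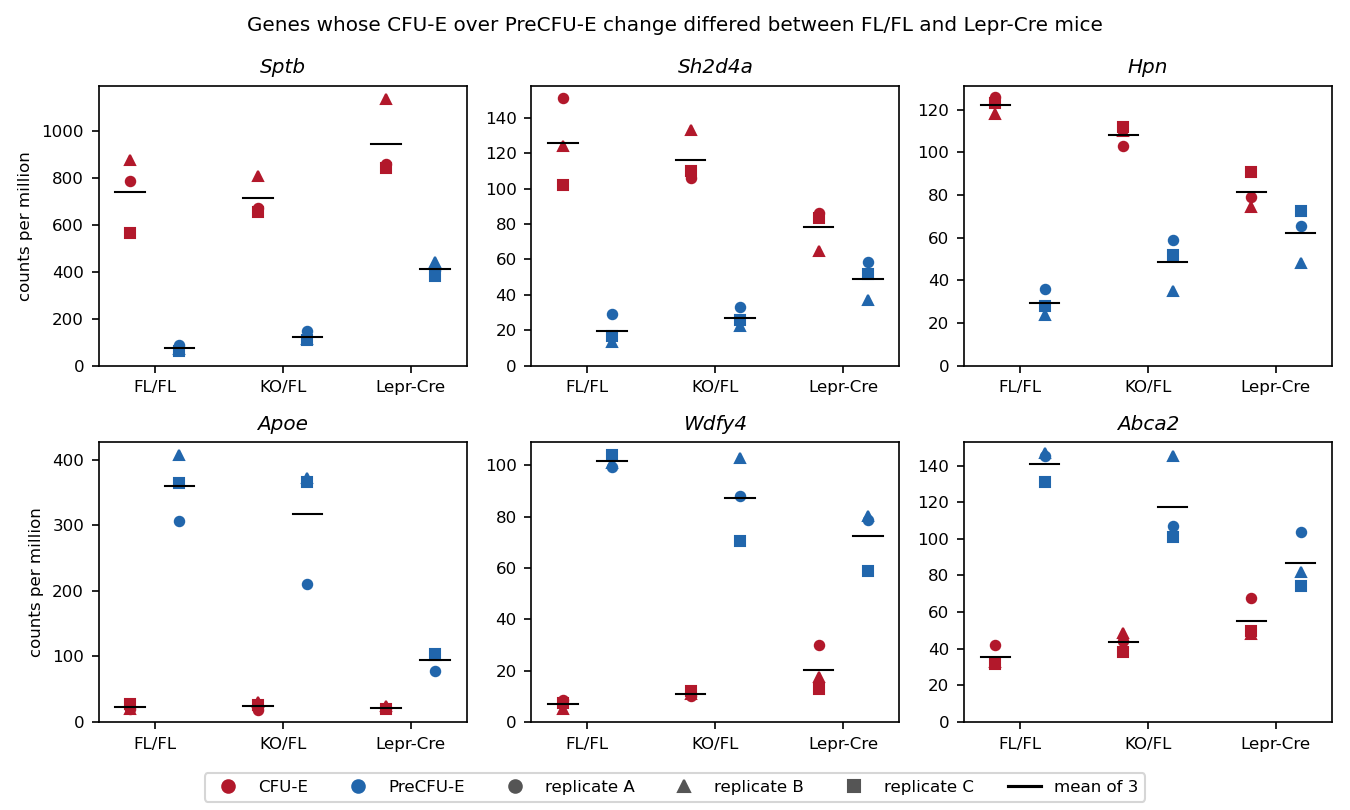
CPM (y axis, from 0) of 6 genes whose step differed between FL/FL and Lepr-Cre mice, the 3 with the smallest p in each direction. Positive differences are above and negative ones below. CFU-E (red) and PreCFU-E (blue) libraries of each genotype are shown, 3 each, with the mean as a bar. The PreCFU-E libraries of Lepr-Cre mice stand apart from those of FL/FL mice, as for Sptb at 382 to 443 CPM against 63.6 to 86.7 CPM. The KO/FL libraries of Sptb lie between these, at 109 to 148 CPM.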

How the data were processed

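RNA of sorted bone marrow progenitors was measured in 18 libraries, of which the 6 of FL/FL mice carry this report. Per the submitters' processing notes, reads were aligned with STAR 2.5.2b to mm10 and counted with HTSeq, for which no version or strand setting is stated. The authors deposited counts per gene (21967 genes, 5325 of them with no count), which were used for all results, and RPKM values, used only in alternatives and within a gene, because the lengths implied by count and RPKM were within 10% of the gene span for only 8.06% of 15400 genes. The rule that ranked abundant genes by RPKM was therefore applied to CPM per kilobase of merged exons from GENCODE M21, which matched 19580 genes.

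Counts were filtered with filterByExpr (at least 10 counts in enough libraries and 15 in all), scaled by TMM and tested with edgeR 4.0.16 (R 4.3.3), quasi-likelihood, two-sided, Benjamini-Hochberg over all tested genes. The labels give both libraries of a pair the same animal, and the deviations of same-mouse libraries from their stage means had correlations of 0.198 to 0.227, so the mouse was a block. P-values of the step measure how the change within a mouse varied over these 3 mice, with the spread of a gene moderated over all tested genes. Differences between genotypes came from 1 fit of 18 libraries, so their p-values rest on the mice of all genotypes. Replicates differed by more than sampling noise. Alternatives used DESeq2 1.42.0 and limma 3.58.1.

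Named genes were Kitl and Kit, the 15 largest called rises and 15 largest falls at 5 CPM or more with groups that did not overlap, as many as 4 genes per list, taken by p, the most abundant markers of other cell types, up to 3 genes in each direction per difference and the 5 most abundant genes of each stage. Further members of the lists are named to describe them and were chosen after their values were seen. The comparison and the lists were chosen with earlier results of these data known.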

Additional observations from a re-analysis of the deposited data

Results flagged for a closer look

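The change from PreCFU-E to CFU-E differed between FL/FL and Lepr-Cre mice for 198 genes by the test of the difference itself. The 3 genes with the smallest p in each direction are given here as log2 differences, FL/FL minus Lepr-Cre. The difference was 2.12 for Sptb, 2.01 for Sh2d4a and 1.66 for Hpn, which rose more in FL/FL mice. It was -1.91 for Apoe, -2.003 for Wdfy4 and -1.35 for Abca2, which fell more in FL/FL mice. In the 6 genes the 3 PreCFU-E libraries of Lepr-Cre mice did not overlap with the 3 of FL/FL mice. For Sptb the PreCFU-E libraries of KO/FL mice, at 148, 112 and 109 CPM, lay above those of FL/FL mice as well. The count was 88 without the FL/FL libraries of mouse B and 38 without the block, and the cause of the difference was not tested.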

How the results depend on the processing

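None of the 143 called named genes changed direction under the alternatives that were run, and 3 of the 12 that were not called did under at least 1 of them. The 3185 genes called in the step (1585 higher, 1600 lower) became 2078 with no replicate block (940 higher), 1963 in the fit of 18 libraries with no replicate block (965 higher, 998 lower), 1766 with limma on log2(RPKM + 1) (741 higher, 1025 lower) and 1869 with limma on log2(RPKM + 0.1) (777 higher), the limma fits having the paired block. The share of called genes that were higher was 49.8% in the count test and 42.0% and 41.6% in these limma fits. Leaving out 1 mouse gave 2023 to 2864 calls (984 to 1418 higher, 1039 to 1446 lower), the lowest without mouse B. DESeq2 size factors gave 3181 calls, no filter 2986, DESeq2's Wald test 2564 and the blocked fit of 18 libraries 2707. For FL/FL minus KO/FL mice, 0 calls became 1 with DESeq2 size factors (1 higher), 2 without the filter (2 higher) and 0 to 2 on leaving out an FL/FL mouse (0 to 2 higher). For FL/FL minus Lepr-Cre mice, 198 became 38 with no replicate block (23 higher, 15 lower) and 88 to 213 on leaving out an FL/FL mouse (64 to 157 higher, 24 to 56 lower). Of 155 named genes tested, 20 lost their call without the block, 26 in the 18-library fit without it, 7 in that fit with it, 19 and 14 in the limma fits with 1 and 0.1 added, 7 by the Wald test, 1 without the filter, 0 with DESeq2 size factors, and 10, 15 and 8 without mouse A, B or C, where 2 genes could not be tested without mouse C. The cause was not tested. Genes under the filter, Alas2 among them, were not tested at this depth.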
